A study of Mus musculus with 10 samples.

Results

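Protocadherins are cadherin-type adhesion proteins of the cell surface, and the genes described here are all protein-coding genes whose GENCODE mouse symbol starts with Pcdh. Of 69 such genes in the GENCODE M21 annotation, 36 were among the 41091 gene identifiers of the deposited count tables: all 12 non-clustered genes, all 22 genes of the Pcdhb cluster, 1 of 14 from the Pcdha cluster and 1 of 21 from the Pcdhg cluster. The other 33 clustered genes were not analysed here. All 36 passed the filter on low counts, but 3 did so only through the libraries of 1 group: Pcdhb1 through shCBX8, and Pcdhb6 and Pcdhb10 through shCTR. Since such a gene is kept because that group is high, its call has this choice in it. Counts came from total RNA of adherent cultures grown from adult C57BL6 mouse olfactory epithelium that had regenerated for 9 days after a methimazole lesion. The cultures carried a lentiviral short hairpin against Cbx8 (shCBX8, n = 3, replicates 1, 2 and 6), against Cbx7 (shCBX7, n = 3, replicates 1, 2 and 5) or a non-targeting scrambled hairpin (shCTR, n = 4, replicates 1, 2, 5 and 6). All groups therefore share the lesion, the culture and a lentiviral hairpin, and no untransduced culture is analysed here.

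CBX7 and CBX8 are alternative chromodomain subunits of Polycomb repressive complex 1, which binds methylated histone H3 and holds genes in a repressed state. Clustered protocadherins are encoded in 3 neighbouring arrays, each variable exon with its own promoter, and single neurons use a small choice of them as a homophilic identity code at the surface. CTCF, cohesin and DNA methylation govern that choice. Non-clustered protocadherins are encoded by separate genes, act as weaker adhesion and signalling proteins in axon growth, cell sorting and morphogenesis, and several of them bind the WAVE actin regulatory complex.

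The targeted genes were checked first. Cbx8 stood at 4.99, 5.14 and 4.71 CPM in shCBX8 libraries, against 12.4, 15.9, 10.2 and 10.8 CPM in shCTR libraries, where CPM is a count divided by the TMM-scaled library size, on edgeR's usual scale. The log2 fold change was -1.31 (SE 0.22, adjusted p = 0.00416 by edgeR's quasi-likelihood test), and the exact two-sided permutation p over 35 splits was 0.0286, the smallest possible with these group sizes. Cbx7 stood at 3.64, 8.02 and 13.1 CPM in libraries labelled shCBX7, against 17.7, 16.4, 13.5 and 5.30 CPM in shCTR libraries. The Cbx7 ranges overlapped (log2 fold change -0.67, SE 0.48, adjusted p = 0.929, exact two-sided permutation p = 0.314), so the level of Cbx7 RNA does not check the shCBX7 label. Gene counts per library ran from 22763014 to 50463172, at which 3 counts correspond to 0.0594 to 0.132 CPM. The labels speak of biologic replicates but name no animals or cultures. P-values thus cover the spread between these libraries alone, which may be technical. Reads of the wrong strand made up 3.42 to 10.4% of stranded gene counts. Every shCTR library had more unmapped reads (9.83 to 21.7%) than any shCBX8 or shCBX7 library (5.03 to 7.81%). The same held for reads outside genes (20.4 to 23.6%, against 12.5 to 18.6%). Replicates 1 and 2 of shCTR were highest in both, and in wrong-strand reads (10.4 and 8.68%). The part of this in the comparisons with shCTR was not tested, and fits without both replicates are given below.

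Within the shCBX8 group, replicate 2 stood apart from replicates 1 and 6 in several members, and in the fibroblast markers, which were also highest in replicate 2 of the other groups. The summed level of 10 fibroblast marker genes was 557, 3130 and 446 CPM in shCBX8 replicates 1, 2 and 6, 5343 to 18098 CPM in shCBX7 libraries and 5686 to 28373 CPM in shCTR libraries. Results that rest on shCBX8 replicate 2 are given with and without it. Of markers for the labelled tissue, Omp of mature olfactory neurons lay between 0.0891 and 0.605 CPM in all 10 libraries, while the 5 horizontal basal cell markers summed to 1027 to 1184 CPM in shCBX8, 266 to 843 CPM in shCBX7 and 313 to 1050 CPM in shCTR libraries. In bulk RNA of such cultures, fewer cells of a type and less RNA per cell cannot be told apart.

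Summed over all 36 genes, protocadherin RNA reached 592 ± 172 CPM in shCBX8 (SD, n = 3), 1592 ± 305 CPM in shCBX7 (n = 3) and 1628 ± 246 CPM in shCTR (n = 4), and every shCBX8 library was below every other. The genes that fell in shCBX8 were found in both the non-clustered and the clustered class. Of 36 members, 12 fell, 1 rose and 23 did not pass the threshold (adjusted p of 0.05). The 13 called members were 36.1% of those tested, against 32.9% of all 16669 genes tested. Without shCBX8 replicate 1 or 6 the number of members called was 7, and without shCTR replicates 1 and 2 together it was 6. Calls over all genes also became fewer, at 2261 of 17212 without shCBX8 replicate 1 and 2279 of 17202 without replicate 6. Without shCTR replicates 1 and 2 together they were 2409 of 16900, where 5478 of 16669 passed with all 10 libraries. By direction, 33.3% of members fell against 15.9% of all genes, and 2.78% rose against 17.0% of all genes. Of the 33 members that passed the filter without any 1 group, 10 fell (30.3%) and 0 rose. Over all 36, the median log2 fold change was -1.04, beside -0.01 for all genes. The libraries of both groups did not overlap for 14 members that were lower and 1 that was higher in shCBX8, where 42.4% of all genes did not overlap (19.5% lower, 22.9% higher). Both comparisons with shCTR use the same 4 libraries, so their values are given side by side and neither supports the other.

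**Figure D1:**
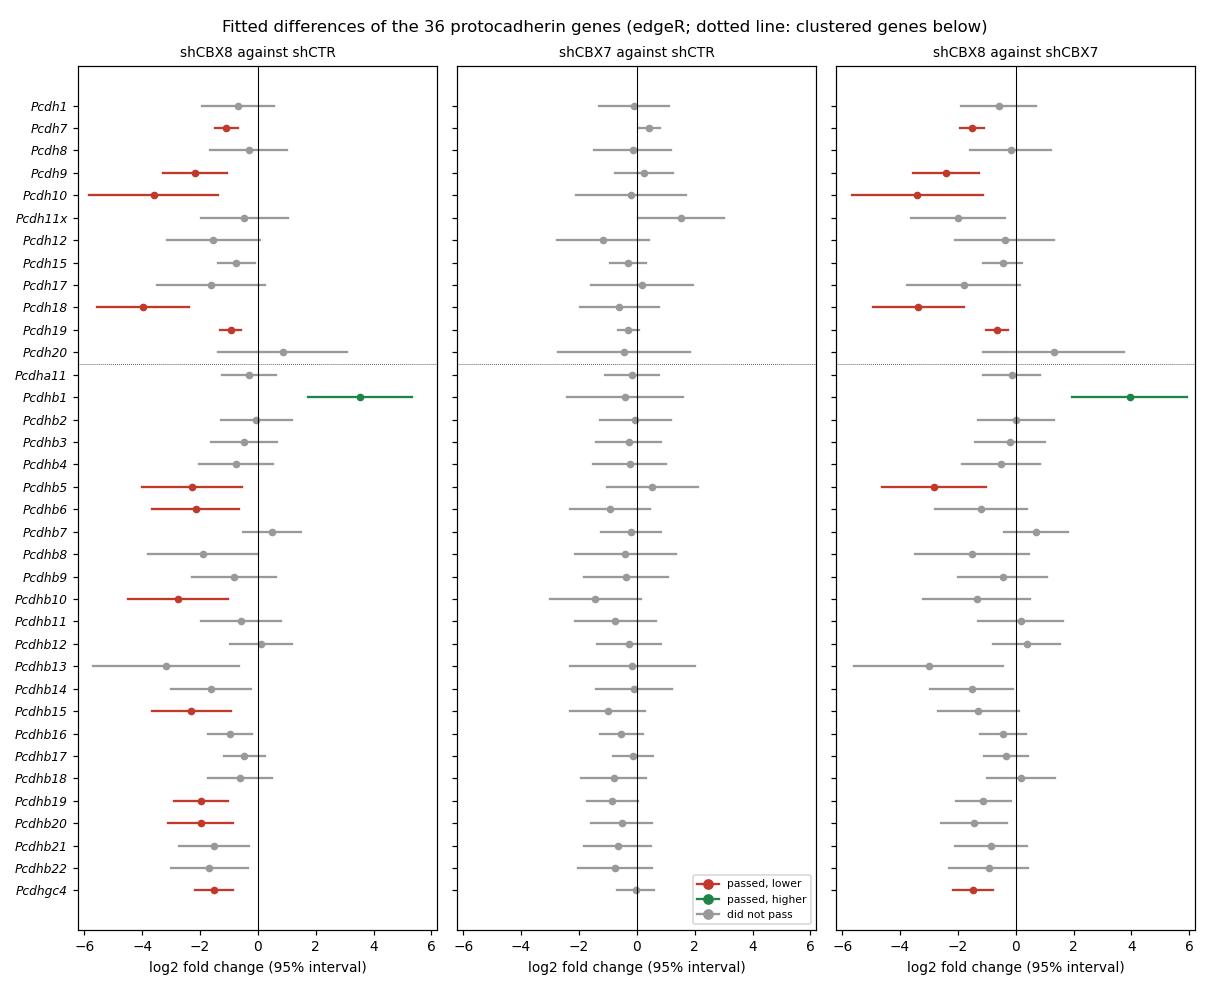
Fitted log2 fold change of each of the 36 protocadherin genes (x axis, point) with its 95% interval (line), in a panel each for shCBX8 against shCTR, shCBX7 against shCTR and shCBX8 against shCBX7. In the first panel 12 genes are coloured as lower and Pcdhb1 as higher, and in the second panel no gene is coloured.

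Among the non-clustered genes, Pcdh7, Pcdh9, Pcdh10, Pcdh18 and Pcdh19 fell in shCBX8 cultures, none rose, and the other 7 of the 12 did not pass. The share called, 41.7% and all lower, stood beside 32.9% of all genes called (15.9% lower, 17.0% higher). The class had a median log2 fold change of -1.02, and 11 of its 12 values were negative. All 5 encode delta protocadherins, which share conserved motifs in the cytoplasmic tail, but so do Pcdh1, Pcdh8, Pcdh11x and Pcdh17, which did not pass. The same 5 genes passed as lower in shCBX8 against shCBX7. Since that comparison uses the same shCBX8 libraries, it gives no separate support. In it 7 of all 36 members were lower (19.4%) and 1 higher (2.78%), beside 13.3% and 15.3% of all genes (28.6% called in either direction). Libraries of shCBX8 and shCBX7 did not overlap for 13 members that were lower and 1 that was higher, where 48.2% of all genes did not overlap (22.6% lower, 25.6% higher).

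Because these 5 genes moved in the same direction, the windows around their starts are shown, as RefSeq gives them on build GRCm38.p6. Each window covers 250 bases before to 50 bases after the start of transcription, 5′ to 3′ on the strand of the gene, with the letters CG in capitals. Windows from the RefSeq table were used for 9 of the 12 non-clustered genes, and no window of the others was examined.
Pcdh18 (chr3:49757267-49757566, minus strand): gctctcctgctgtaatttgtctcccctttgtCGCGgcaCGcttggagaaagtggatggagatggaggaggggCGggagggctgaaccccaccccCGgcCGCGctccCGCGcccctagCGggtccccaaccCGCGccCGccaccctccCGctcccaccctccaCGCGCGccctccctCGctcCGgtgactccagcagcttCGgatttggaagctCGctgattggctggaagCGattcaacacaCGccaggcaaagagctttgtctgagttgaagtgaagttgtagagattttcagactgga
Pcdh10 (chr3:45378148-45378447, plus strand): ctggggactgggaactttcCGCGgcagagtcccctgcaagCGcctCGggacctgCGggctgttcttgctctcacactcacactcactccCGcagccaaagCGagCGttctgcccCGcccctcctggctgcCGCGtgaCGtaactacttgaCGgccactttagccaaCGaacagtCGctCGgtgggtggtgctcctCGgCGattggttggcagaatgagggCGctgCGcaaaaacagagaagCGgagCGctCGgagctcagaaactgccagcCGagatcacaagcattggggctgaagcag
Pcdh9 (chr14:93890630-93890929, minus strand): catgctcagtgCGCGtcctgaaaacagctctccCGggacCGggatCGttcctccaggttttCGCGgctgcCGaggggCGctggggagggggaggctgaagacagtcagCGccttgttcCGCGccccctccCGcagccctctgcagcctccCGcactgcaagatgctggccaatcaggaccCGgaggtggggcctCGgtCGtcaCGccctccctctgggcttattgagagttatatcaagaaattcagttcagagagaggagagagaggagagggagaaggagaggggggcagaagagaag
Pcdh19 (chrX:133688944-133689243, minus strand): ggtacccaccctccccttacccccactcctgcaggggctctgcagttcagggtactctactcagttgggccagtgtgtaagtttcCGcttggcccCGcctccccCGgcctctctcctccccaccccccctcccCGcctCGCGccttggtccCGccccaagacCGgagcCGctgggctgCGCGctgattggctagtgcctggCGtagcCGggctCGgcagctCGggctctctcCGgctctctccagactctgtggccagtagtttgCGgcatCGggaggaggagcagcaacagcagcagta
Pcdh7 (chr5:57717831-57718130, plus strand): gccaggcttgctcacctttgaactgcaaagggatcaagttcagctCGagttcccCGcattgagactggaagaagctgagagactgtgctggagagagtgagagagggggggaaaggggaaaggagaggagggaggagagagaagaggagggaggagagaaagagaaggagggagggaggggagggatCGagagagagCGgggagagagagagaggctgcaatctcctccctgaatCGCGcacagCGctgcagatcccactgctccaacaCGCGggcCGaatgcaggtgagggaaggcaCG
The motif CG reads the same on both strands, and its copies were counted in each window. There were 24 in the window of Pcdh10, 23 in that of Pcdh18, 18 each in those of Pcdh9 and Pcdh19, and 11 in that of Pcdh7, where the median of all 32851 windows in the table was 7. Windows with at least as many made up 20.0% of all for Pcdh10, 21.5% for Pcdh18, 29.7% for Pcdh9 and Pcdh19, and 41.4% for Pcdh7. For Pcdh9 the first of 2 listed windows was used. Among genes that did not pass, the window held 26 for Pcdh17, 14 for Pcdh8, 8 for Pcdh15 and 4 for Pcdh20, so the ranges of the genes that fell and of those that did not pass overlapped. The Pcdh15 window (chr10:73821617-73821916) lies inside the gene as M21 gives it (73099342 to 74649737, plus strand), so its count is not that of the M21 start.

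Pcdh18, whose protein binds the adaptor Dab1 in mouse, lies on chromosome 3 from 49743296 to 49757325 on the minus strand (GRCm38). It stood at 8.70, 37.4 and 9.55 CPM in shCBX8 libraries, 161, 305 and 109 CPM in shCBX7 libraries and 410, 396, 226 and 135 CPM in shCTR libraries. Every shCBX8 library was below every other library, and replicate 2 was the nearest to them. Fitted log2 fold changes were -3.98 against shCTR (SE 0.71, a 15.8-fold lower level, adjusted p = 0.00497 by edgeR) and -3.37 against shCBX7 (SE 0.70, adjusted p = 0.0102 by edgeR). In mean level per kb of exon it stood at 3.45 CPM per kb in shCBX8, below Pcdh7 and Pcdh19, and at 54.4 CPM per kb in shCTR, above both.

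Pcdh10 encodes OL-protocadherin, which recruits the WAVE complex, and lies on chromosome 3 from 45378398 to 45435623 on the plus strand. Its level was 0.168, 0.902 and 0.409 CPM in shCBX8 libraries, 1.28, 8.47 and 5.73 CPM in shCBX7 libraries and 2.26, 14.2, 1.85 and 5.36 CPM in shCTR libraries. The shCBX8 libraries lay below all others, while the shCTR libraries were themselves widely spread. In counts, Pcdh10 had 8, 30 and 19 in shCBX8 libraries. The log2 fold change was -3.60 against shCTR (SE 1.0, adjusted p = 0.0240 by edgeR) and -3.40 against shCBX7 (SE 1.01, adjusted p = 0.0342 by edgeR). The fall against shCTR was lost without shCBX8 replicate 1 or 6, or without shCTR replicates 1 and 2 together, with adjusted p up to 0.0900. The fall against shCBX7 was lost without shCBX8 replicate 1 or 6 or shCBX7 replicate 2 or 5, with adjusted p up to 0.117.

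Pcdh9 lies on chromosome 14 from 93013410 to 93890679 on the minus strand. Its level was 3.21, 13.6 and 3.48 CPM in shCBX8 libraries, 30.6, 42.4 and 35.2 CPM in shCBX7 libraries and 23.6, 30.8, 32.0 and 35.3 CPM in shCTR libraries. The shCBX7 and shCTR ranges overlapped and the shCBX8 libraries lay below both, again with replicate 2 nearest. Fitted log2 fold changes were -2.18 against shCTR (SE 0.49, adjusted p = 0.0113 by edgeR) and -2.42 against shCBX7 (SE 0.51, adjusted p = 0.0105 by edgeR).

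Pcdh7 encodes NF-protocadherin, known in Xenopus for roles in ectodermal adhesion and retinal axons, and lies on chromosome 5 from 57717967 to 58133230 on the plus strand. It was the most abundant member per kb of exon in shCBX8 cultures, at 17.0 CPM per kb on average, where the Pcdha and Pcdhg identifiers are left out because the transcripts they cover are not known. Its level was 157, 216 and 166 CPM in shCBX8 libraries, 603, 506 and 424 CPM in shCBX7 libraries and 365, 410, 329 and 434 CPM in shCTR libraries. The shCBX8 libraries were lowest, and the shCBX7 and shCTR ranges overlapped slightly. Pcdh7 had a log2 fold change of -1.10 against shCTR (SE 0.18, a 2.14-fold lower level, adjusted p = 0.00377 by edgeR) and -1.51 against shCBX7 (SE 0.19, adjusted p = 0.00260 by edgeR). In shCBX7 against shCTR the value was 0.41 (SE 0.17), with an adjusted p of 0.802 by edgeR.

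Pcdh19 encodes a protein that forms a complex with N-cadherin and is mutated in an X-linked human epilepsy, and it lies on chromosome X from 133582860 to 133688987 on the minus strand. Its level was 106, 136 and 103 CPM in shCBX8 libraries, 142, 216 and 182 CPM in shCBX7 libraries and 229, 223, 211 and 218 CPM in shCTR libraries. The shCTR libraries lay close together, and all shCBX8 libraries were lower. Pcdh19 had a log2 fold change of -0.94 against shCTR (SE 0.16, adjusted p = 0.00442 by edgeR) and -0.65 against shCBX7 (SE 0.17, adjusted p = 0.0216 by edgeR). The call against shCBX7 was lost without shCBX8 replicate 1 or 6 or shCBX7 replicate 2.

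**Figure D2:**
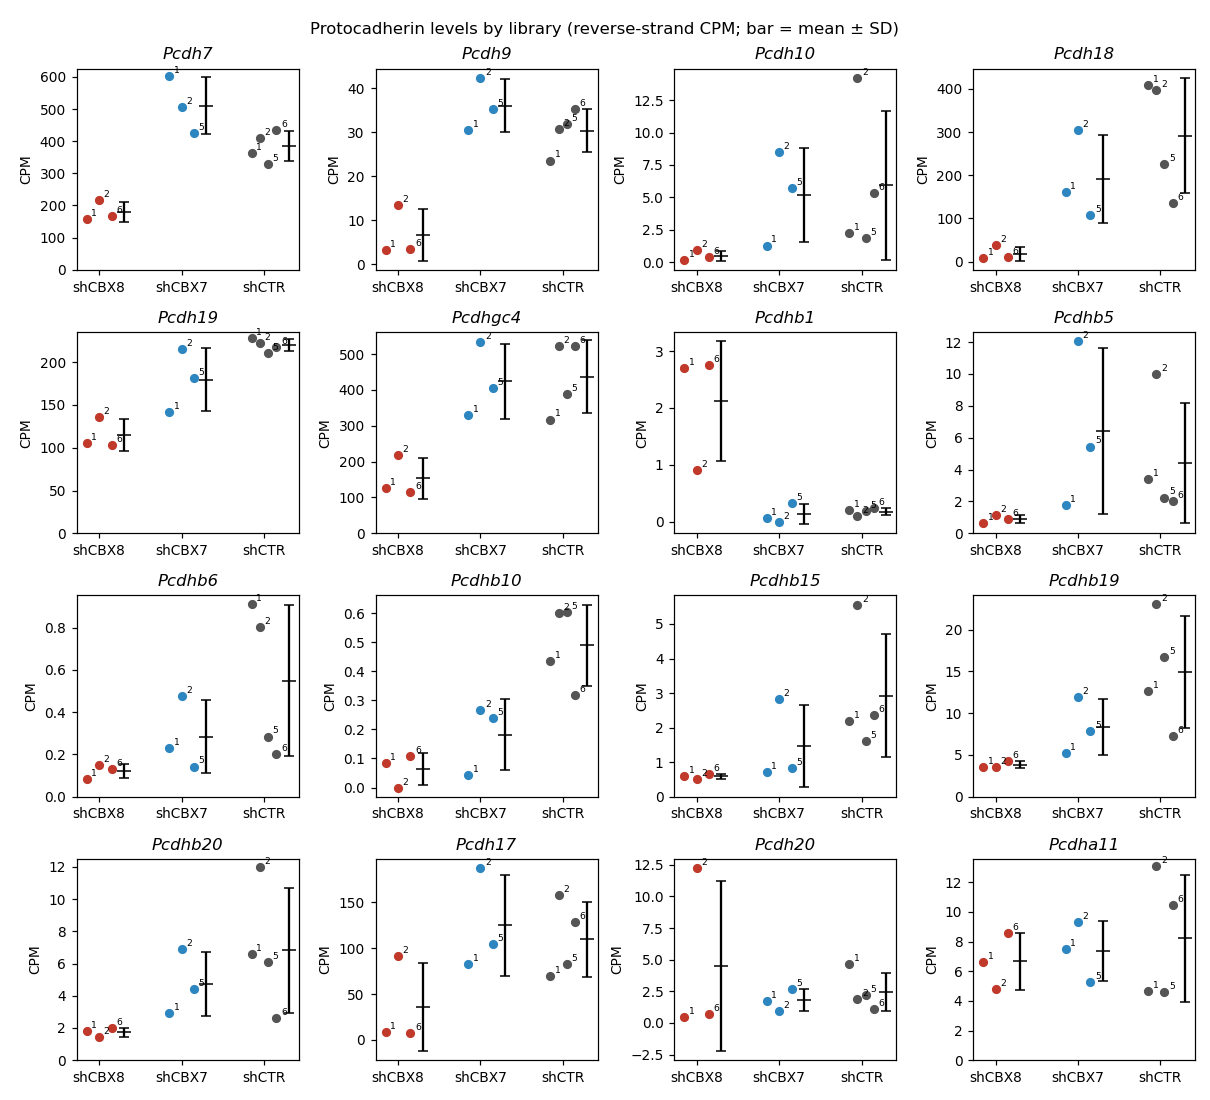
CPM of each library (points, numbered by replicate) with the group mean ± SD (bar) for the 13 called protocadherins and Pcdh17, Pcdh20 and Pcdha11, with shCBX8 on the left, shCBX7 in the middle and shCTR on the right. In Pcdh17 the shCBX8 replicate 2 stands at 91.2 CPM, far above the 8.70 and 7.63 CPM of replicates 1 and 6.

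For Pcdh17 and Pcdh20 the result changed without shCBX8 replicate 2. Pcdh17, a WAVE-recruiting protein of axons in mouse, stood at 8.70, 91.2 and 7.63 CPM in shCBX8 libraries, 83.0, 187 and 104 CPM in shCBX7 libraries and 69.2, 158, 83.0 and 128 CPM in shCTR libraries. The log2 fold change was -1.61 against shCTR (SE 0.83, adjusted p = 0.159 by edgeR), and without shCBX8 replicate 2 it was -3.75 (adjusted p = 0.00118). Replicate 2 was the highest library of Pcdh17 in all 3 groups, and a fit blocked on replicate number called the gene (-2.45, adjusted p = 0.0267). Pcdh20 stood at 0.503, 12.2 and 0.731 CPM in shCBX8 libraries, 1.75, 0.951 and 2.71 CPM in shCBX7 libraries and 4.63, 1.90, 2.21 and 1.12 CPM in shCTR libraries. Its log2 fold change was 0.86 (SE 0.99, adjusted p = 0.529 by edgeR), and without shCBX8 replicate 2 it was -1.99 (adjusted p = 0.0437).

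The remaining 5 non-clustered genes did not pass. Pcdh15, which forms the tip links of inner ear hair cells with Cdh23, stood at 1.49, 2.71 and 2.67 CPM in shCBX8 libraries, 3.24, 3.45 and 2.71 CPM in shCBX7 libraries and 3.68, 4.86, 3.06 and 3.74 CPM in shCTR libraries. Its shCBX8 libraries all lay below the shCTR libraries (log2 fold change -0.75, SE 0.28, adjusted p = 0.0667 by edgeR), and 10.4% of its stranded counts were on the wrong strand. By group the wrong-strand share was 8.06% in shCBX8, 4.48% in shCBX7 and 16.8% in shCTR. Pcdh15 passed with DESeq2 (adjusted p = 0.0215), with unstranded counts (0.0346) and with the replicate block (0.0423). Unstranded counts include the wrong-strand reads, whose share was highest in shCTR. Pcdh1, an adhesion protein of airway epithelium, stood at 15.3, 12.2 and 16.8 CPM in shCBX8 libraries, 21.9, 12.6 and 32.5 CPM in shCBX7 libraries and 12.3, 9.22, 23.6 and 49.6 CPM in shCTR libraries, with overlapping groups (log2 fold change -0.68, SE 0.55, adjusted p = 0.361 by edgeR). The shCTR libraries of Pcdh1 alone spanned the whole range of the other groups.

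Pcdh12, a protein of endothelium, stood at 0.524, 0.180 and 0.280 CPM in shCBX8 libraries, 0.632, 0.327 and 0.333 CPM in shCBX7 libraries and 0.396, 0.701, 0.356 and 2.36 CPM in shCTR libraries (log2 fold change of shCBX8 against shCTR -1.53, SE 0.72, adjusted p = 0.128 by edgeR). Pcdh8, an activity-regulated protein of synapses in rat, stood at 1.68, 1.17 and 2.04 CPM in shCBX8 libraries, 1.22, 1.34 and 3.00 CPM in shCBX7 libraries and 0.752, 1.05, 1.99 and 4.29 CPM in shCTR libraries (-0.32, SE 0.59, adjusted p = 0.704 by edgeR). X-linked Pcdh11x stood at 1.32, 0.692 and 1.20 CPM in shCBX8 libraries, 0.800, 5.44 and 6.66 CPM in shCBX7 libraries and 1.39, 2.76, 0.925 and 0.921 CPM in shCTR libraries (-0.46, SE 0.67, adjusted p = 0.621 by edgeR). In each of these 3 genes the groups overlapped.

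The clustered genes lie side by side on chromosome 18. Of 24, 7 fell, 1 rose and 16 did not pass, with a median log2 fold change of -1.24. The share called, 33.3%, was close to the 32.9% of all genes, with 29.2% lower (15.9% of all genes) and 4.17% higher (17.0%). Most of their counts came from a single identifier of the Pcdhg cluster, which M21 names Pcdhgc4 (37815079 to 37841873, plus strand). Genes of the Pcdha and Pcdhg clusters share constant exons at the end of the cluster, and it is not known from the files whether this identifier stands for Pcdhgc4 alone or for several genes of the cluster. It stood at 126, 220 and 115 CPM in shCBX8 libraries, 330, 535 and 407 CPM in shCBX7 libraries and 317, 521, 387 and 523 CPM in shCTR libraries. The shCBX8 libraries lay below all others (log2 fold change -1.51 against shCTR, SE 0.29, adjusted p = 0.00692, and -1.47 against shCBX7, SE 0.31, adjusted p = 0.0104, both by edgeR). The Pcdha identifier, which M21 names Pcdha11 (37005203 to 37187657, plus strand), stood at 4.78 to 8.60 CPM in shCBX8, 5.28 to 9.33 CPM in shCBX7 and 4.63 to 13.1 CPM in shCTR, with overlapping groups (-0.30, SE 0.42, adjusted p = 0.600 by edgeR against shCTR).

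**Figure D3:**
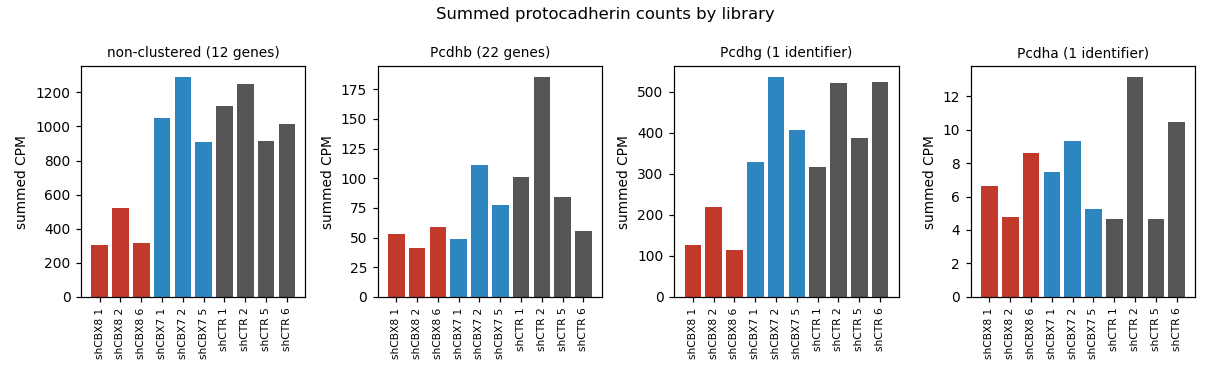
Summed CPM of each protocadherin class in each library (bars), with shCBX8 libraries first, then shCBX7, then shCTR. The sum of the 12 non-clustered genes was 304 to 524 CPM in shCBX8 libraries and 915 to 1252 CPM in shCTR libraries, while for the 22 Pcdhb genes shCTR replicate 6, at 55.6 CPM, lay within the shCBX8 range.

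Summed by class, the non-clustered genes reached 381 ± 124 CPM in shCBX8 (SD, n = 3), 1082 ± 192 CPM in shCBX7 (n = 3) and 1076 ± 144 CPM in shCTR (n = 4). The Pcdhb genes together reached 50.9 ± 8.79 CPM in shCBX8, 79.0 ± 31.3 CPM in shCBX7 and 106 ± 55.6 CPM in shCTR. The log2 ratio of the shCBX8 to the shCTR mean was -1.50 for the non-clustered genes and -1.06 for the Pcdhb genes. For the Pcdhb sum, however, the library ranges overlapped, at 41.4 to 58.7 CPM in shCBX8 and 55.6 to 185 CPM in shCTR, and without shCTR replicates 1 and 2 the log2 ratio was -0.46.

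The Pcdhb cluster holds single-exon genes, each a complete protein without the shared constant exons. Of its 22 genes, Pcdhb5, Pcdhb6, Pcdhb10, Pcdhb15, Pcdhb19 and Pcdhb20 fell, Pcdhb1 rose and 15 did not pass, with log2 fold changes between -3.17 and 3.53 and a median of -1.24. Their share called was 31.8%, beside 32.9% of all genes. These genes are close copies of each other, and reads that fit several of them are not in the counts, so the division between neighbours is uncertain. Pcdhb21 and Pcdhb22 also overlap by 455 bases on the same strand.

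Pcdhb19 (37496991 to 37504128) stood at 3.58, 3.58 and 4.32 CPM in shCBX8 libraries, 5.22, 11.9 and 7.85 CPM in shCBX7 libraries and 12.6, 23.1, 16.7 and 7.23 CPM in shCTR libraries. The shCBX8 libraries lay close together and below all others, while shCTR libraries were more widely spread (log2 fold change against shCTR -1.96, SE 0.41, adjusted p = 0.00914 by edgeR). Its neighbour Pcdhb20 (37504264 to 37507822) stood at 1.78, 1.44 and 1.98 CPM in shCBX8 libraries, 2.93, 6.89 and 4.40 CPM in shCBX7 libraries and 6.61, 11.97, 6.12 and 2.59 CPM in shCTR libraries (-1.97, SE 0.50, adjusted p = 0.0176 by edgeR). Pcdhb15 (37473540 to 37476340) stood at 0.587, 0.511 and 0.667 CPM in shCBX8 libraries, 0.716, 2.82 and 0.832 CPM in shCBX7 libraries and 2.18, 5.56, 1.60 and 2.36 CPM in shCTR libraries (-2.30, SE 0.61, adjusted p = 0.0211 by edgeR). In both genes the shCBX8 libraries were below all others, yet the calls were lost without shCBX8 replicate 1 or 6, or without shCTR replicates 1 and 2 together.

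The calls of the other 3 that fell also changed when libraries were left out. Pcdhb5 (37320381 to 37323915) stood at 0.671, 1.14 and 0.903 CPM in shCBX8 libraries, 1.75, 12.1 and 5.44 CPM in shCBX7 libraries and 3.41, 10.02, 2.24 and 2.04 CPM in shCTR libraries (-2.28, SE 0.77, adjusted p = 0.0464 by edgeR). It was also lower in shCBX8 than in shCBX7 (-2.82, SE 0.81, adjusted p = 0.0297 by edgeR), a call lost without shCBX8 replicate 1 or 6 or shCBX7 replicate 2 (adjusted p up to 0.108). Its call against shCTR was lost when any shCBX8 library, shCBX7 replicate 5 or shCTR replicate 1, 2 or 5 was left out. Pcdhb10 (37411664 to 37414514) had 4, 0 and 5 counts in shCBX8 libraries, 2, 9 and 10 counts in shCBX7 libraries and 11, 12, 17 and 11 counts in shCTR libraries (-2.78, SE 0.77, adjusted p = 0.0242 by edgeR). Pcdhb6 (37333921 to 37337674) had 4, 5 and 6 counts in shCBX8 libraries, 11, 16 and 6 counts in shCBX7 libraries and 23, 16, 8 and 7 counts in shCTR libraries (-2.14, SE 0.67, adjusted p = 0.0366 by edgeR). Pcdhb10 was lost without shCBX8 replicate 1 or 6 or shCTR replicate 5, and Pcdhb6 without any shCBX8 library or shCTR replicate 1 or 2. Without shCTR replicates 1 and 2 together the calls of Pcdhb5, Pcdhb6 and Pcdhb10 against shCTR were all lost. That of Pcdhb10 was also lost with the replicate block, and that of Pcdhb5 with library size only as the scaling. Both Pcdhb10 and Pcdhb6 passed the filter on low counts only through shCTR, where they are high. With no filter Pcdhb10 passed (adjusted p = 0.0324) and Pcdhb6 did not. On the wrong strand there were 9 counts of Pcdhb10 beside 81 on its own strand, and 10 counts of Pcdhb6 beside 102.

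Pcdhb1, the first gene of its cluster (37264938 to 37267525), moved the other way. It is known as a member whose promoter lacks the CTCF-bound element that most clustered promoters carry. The part of this in its rise was not tested. Pcdhb1 stood at 2.70, 0.902 and 2.75 CPM in shCBX8 libraries, 0.0632, 0 and 0.333 CPM in shCBX7 libraries and 0.198, 0.1002, 0.178 and 0.230 CPM in shCTR libraries. As it passed the filter on low counts only through shCBX8, where it is high, its rise has that choice in it, and with no filter its adjusted p was 0.00810. All shCBX8 libraries were above all others (log2 fold change 3.53 against shCTR, SE 0.79, adjusted p = 0.0113, and 3.94 against shCBX7, SE 0.89, adjusted p = 0.0131, both by edgeR). In counts this was 129, 30 and 128 in shCBX8, 3, 0 and 14 in shCBX7 and 5, 2, 5 and 8 in shCTR. On the wrong strand there were 1, 0 and 0 counts in shCBX8, 0, 0 and 1 in shCBX7 and 5, 2, 4 and 3 in shCTR, which made up 0.347%, 5.56% and 41.2% of the stranded counts of those groups. The shCTR level of Pcdhb1 thus lay near that of wrong-strand reads, and the level of shCBX8 did not. With wrong-strand counts subtracted the log2 fold change was 5.23 (adjusted p = 0.0118), with unstranded counts 2.82 (0.0199), and without shCTR replicates 1 and 2 it was 3.34 with an adjusted p of 0.0773.

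Pcdhb1 made up 5.14%, 2.18% and 4.69% of the summed Pcdhb level in shCBX8 libraries, against 0.0542 to 0.415% in shCTR libraries. Pcdhb17 and Pcdhb16 were the most abundant Pcdhb genes per kb of exon in every group, at 2.65 and 1.56 CPM per kb in shCBX8, 3.36 and 2.12 CPM per kb in shCBX7 and 3.69 and 3.07 CPM per kb in shCTR. Neither passed against shCTR (log2 fold change -0.47, SE 0.31, adjusted p = 0.268 for Pcdhb17, and -0.98, SE 0.34, adjusted p = 0.0520 for Pcdhb16, by edgeR). Of the 15 that did not pass, Pcdhb13, Pcdhb14, Pcdhb21 and Pcdhb22 also had negative values with adjusted p between 0.0544 and 0.0676, and Pcdhb7 (0.49) and Pcdhb12 (0.11) had positive ones. Over the 22 genes, the log2 fold change of shCBX8 against shCTR and position along the cluster had a Spearman rho of -0.32, given as a description, since neighbouring genes share libraries and similar sequence.

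**Figure D4:**
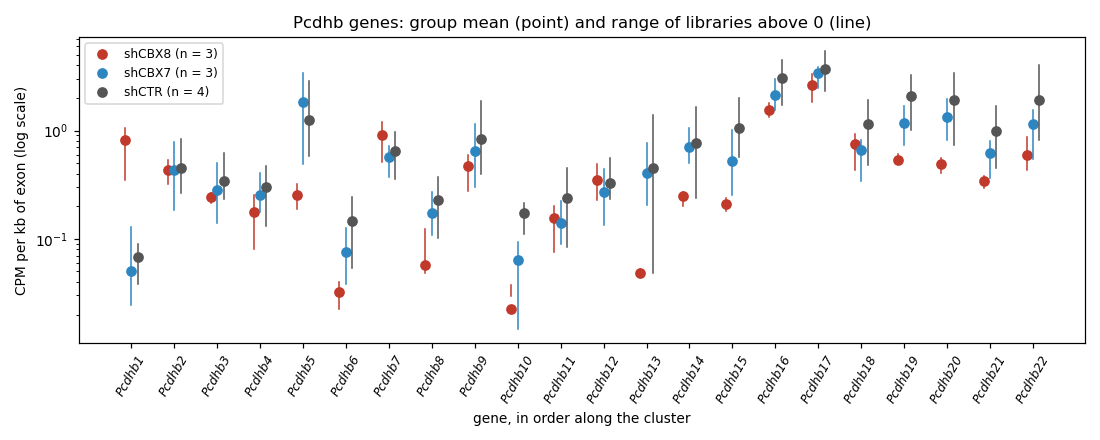
Level of the 22 Pcdhb genes in order along the cluster (x axis), in CPM per kb of exon on a log scale, as the group mean (point) and the range of libraries above 0 (line) for shCBX8, shCBX7 and shCTR. Pcdhb1, at the left end, averages 0.819 CPM per kb in shCBX8 and 0.0682 CPM per kb in shCTR, while Pcdhb19 averages 0.536 and 2.09 CPM per kb in these groups.

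In shCBX7 cultures no protocadherin passed against shCTR, and 0% of all genes did. By edgeR 2 of the 36 had an unadjusted p under 0.05, a share similar to that of all genes (975 of 16669). They were Pcdh7 (log2 fold change 0.41, 95% interval 0.02 to 0.80) and Pcdh11x (1.53, 0.06 to 3.00). DESeq2 called 0 of the members and 91 of all genes. The median log2 fold change of the members was -0.29, beside 0.00 for all genes, with 31 negative and 5 positive values. Pcdhb10 was the one member whose shCBX7 and shCTR libraries did not overlap (lower, log2 fold change -1.43, SE 0.69), where 5.42% of all genes did not overlap (3.73% lower). For non-clustered genes that fell in shCBX8, the shCBX7 values against shCTR were 0.25 for Pcdh9 (interval -0.76 to 1.26), -0.61 for Pcdh18 (-1.97 to 0.75), -0.20 for Pcdh10 (-2.10 to 1.70) and -0.29 for Pcdh19 (-0.65 to 0.06), and for Pcdhgc4 the value was -0.05 (-0.68 to 0.59). Tested directly, shCBX8 against shCBX7 called Pcdhb1 as higher, and Pcdhb5, Pcdhgc4 and the 5 non-clustered genes as lower. Pcdhb19 (adjusted p = 0.0716 by edgeR), Pcdhb20 (0.0603), Pcdhb6 (0.219), Pcdhb10 (0.240) and Pcdhb15 (0.143), which fell against shCTR, did not pass in that test.

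Genes known to act on protocadherin promoters were described alongside. Of 24 factors for promoter choice and silencing of the clusters, 8 fell (33.3%) and 2 rose (8.33%) in shCBX8 against shCTR, beside 15.9% and 17.0% of all genes, with a median log2 fold change of -0.24. Those with the smallest p were all lower: Tet2 (-1.35, adjusted p = 0.00169) and Tet1 (-2.91, 0.00267), which oxidise methylated cytosine, the cohesin loader subunit Mau2 (-0.52, 0.00537) and the DNA methyltransferase Dnmt3a (-0.93, 0.00858), all by edgeR. The 2 that rose were Setdb1 (0.45, adjusted p = 0.0116) and Wapl (0.47, 0.0321), also by edgeR. Of 23 cytoplasmic partners and processing proteins, 6 were called (26.1%, below the 32.9% of all genes): 5 fell and 1 rose (median 0.02). Those that fell were Marcks, which links the membrane to actin (-1.74, adjusted p = 0.00474), and the WAVE subunits Abi2 (-0.66, 0.00988) and Wasf2 (-0.64, 0.0445). The others that fell were the proteases Psen2 (-1.06, 0.0130) and Adam10 (-0.36, 0.0345), which cut protocadherins at the membrane. Another WAVE subunit, Abi1, was the 1 that rose (0.43, 0.0386), all by edgeR.

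Of 15 other large cadherins and their modifiers tested, 3 fell and 3 rose (median 0.18), 20.0% each, near the shares of all genes. Fat4, a ligand and receptor of planar polarity, averaged 10.2 CPM in shCBX8 and 540 CPM in shCTR (log2 fold change -5.73, adjusted p = 0.00343 by edgeR). Celsr2 (2.41, adjusted p = 0.0158), Fjx1 (1.82, 0.0181) and Fat2 (2.39, 0.0331) were higher. Of 19 tested genes within 300 kb of the clusters, 5 rose (26.3%, beside 17.0% of all genes) and none fell (beside 15.9%), with a median of 0.07. In all, a smaller share was called than of all genes (32.9%), and no contrast with the clusters was tested. The 5 included Cd14 (2.08, adjusted p = 0.00233), Rell2 (1.65, 0.00653), the histone deacetylase Hdac3 (0.42, 0.00659) and Fchsd1 (0.62, 0.0173), by edgeR. In shCBX7 against shCTR none of the genes in these 4 lists passed.

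Markers of other cell types were set beside these results. In each marker list the share called was below the 32.9% of all genes. Of the 10 fibroblast markers 2 fell (Col1a1 and Fbln1) and none rose, with a median log2 fold change of -3.28 and the summed levels given above. Of 11 neuronal markers tested, 2 fell (Ncam1 and Stmn2) and 1 rose (Gnal), with sums of 52.5 to 132 CPM in shCBX8, 193 to 250 CPM in shCBX7 and 141 to 182 CPM in shCTR. Of 5 horizontal basal cell markers, 1 rose (Trp63). Of 7 endothelial markers 1 rose (Tek), with overlapping sums of 28.8 to 33.1 CPM in shCBX8, 26.5 to 57.4 CPM in shCBX7 and 18.6 to 54.9 CPM in shCTR. Of 5 ensheathing and Schwann cell markers 1 fell (S100b), with overlapping sums of 10.6 to 35.5 CPM in shCBX8, 12.3 to 49.3 CPM in shCBX7 and 13.5 to 44.2 CPM in shCTR. Of 5 immune markers 1 rose (Cd68), with sums of 7.43 to 13.5 CPM in shCBX8, 3.24 to 7.80 CPM in shCBX7 and 3.61 to 6.10 CPM in shCTR. No marker in these lists was at 3 counts or fewer over all libraries. The fibroblast and neuronal sums were higher in shCBX8 replicate 2 than in replicates 1 and 6. Of the called members, so were Pcdh7, Pcdh9, Pcdh10, Pcdh18, Pcdh19, Pcdhgc4, Pcdhb5 and Pcdhb6, while Pcdhb1, Pcdhb10, Pcdhb15, Pcdhb19 and Pcdhb20 were lowest there. Of the non-clustered genes not called, Pcdh15, Pcdh17 and Pcdh20 were highest in that replicate too. The part of these markers in the protocadherin results was not tested.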

How the data were processed

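The submitters' processing notes list bcl2fastq 2.17, Trim Galore 0.4.3, STAR 2.5.0a and the mm10 build; no annotation release is named there. The authors deposited raw read counts per Ensembl gene for each of 10 libraries, in the table that STAR writes, with unstranded, forward-strand and reverse-strand columns, and the reverse-strand column was used. Reads counted to no gene did not enter library sizes: those unmapped (5.03 to 21.7%), multimapping (15.4 to 22.1%), outside genes (12.5 to 23.6%) or ambiguous (0.290 to 0.637%). Close paralogs such as the Pcdhb genes lose their multimapping reads in this way. GENCODE M21 (GRCm38) gave symbols, coordinates and exon lengths for 40217 of 41091 identifiers.

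After filterByExpr (minimum count 10) and TMM scaling, edgeR 4.0.16 (R 4.3.3) was fitted with its quasi-likelihood test to all 10 libraries, with no factor besides the group. Benjamini-Hochberg adjustment ran over 16669 genes at a threshold of 0.05. The SE is the log2 fold change divided by the root of F. DESeq2 1.42.0, other scalings, filters and strand choices, the replicate block and libraries left out were alternatives. The scripts were tested on simulated data.

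Full values are given for each non-clustered member and each clustered member past the threshold, the others by range, with up to 4 genes per list by smallest p. Pcdhb16, Pcdhb17, Abi1, Wasf2, Setdb1, Wapl, genes near the threshold and single marker genes were named after their values were seen. Members and lists were chosen with earlier results of these data known.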

Additional observations from a re-analysis of the deposited data

Results flagged for a closer look

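In 4 Pcdhb genes, 1 of the 4 shCTR libraries lay far from the others of its group, in each case shCTR replicate 2 as the highest. Pcdhb3 stood at 2.35 CPM there, Pcdhb5 at 10.02 CPM, Pcdhb12 at 1.70 CPM and Pcdhb13 at 5.16 CPM, where the gap to the next library divided by the group's range exceeded Dixon's 95% critical value for 4 samples. In all, 40 values were checked this way (the 36 genes and 4 class sums), and chance picks about 1 in 20. The summed fibroblast markers were also highest in that library, at 28373 CPM, against 5686 to 8853 CPM in the other shCTR libraries, and the part of this in the Pcdhb levels was not tested. Of the 4 genes, Pcdhb5 passed in shCBX8 against shCTR, and without shCTR replicate 2 its log2 fold change was -1.53 (adjusted p = 0.0990 by edgeR).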

How the results depend on the processing

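Of the 13 protocadherins called in shCBX8 against shCTR, 6 passed under every alternative at the same threshold (Pcdh7, Pcdh9, Pcdh18, Pcdh19, Pcdhb19 and Pcdhgc4). Pcdhb1 passed without any 1 library, and 6 were lost without some library. With 1 library left out the count ran from 7 (without shCBX8 replicate 1 or 6) to 17 (without shCTR replicate 6). It was 20 with DESeq2, 6 without shCTR replicates 1 and 2 together, and 5 at an adjusted p of 0.01. Calls over all genes also moved, from 5478 of 16669 to 2261 of 17212 and 2279 of 17202 without shCBX8 replicate 1 or 6. They were 5309 of 16583 without shCTR replicate 6, 6796 of 16669 with DESeq2 and 2409 of 16900 without shCTR replicates 1 and 2. For shCBX8 against shCBX7 the member count of 8 became 13 with DESeq2 and 1 at 0.01. With 1 library left out it ran from 5 (without shCBX8 replicate 1, shCBX8 replicate 6 or shCBX7 replicate 2) to 12 (without shCTR replicate 2). All-gene calls, 4762 of 16669 in the main fit, were 6252 with DESeq2 and 5068 of 16415 without shCTR replicate 2. They were 1848 of 17212 without shCBX8 replicate 1, 1784 of 17202 without shCBX8 replicate 6 and 2900 of 17444 without shCBX7 replicate 2. For shCBX7 against shCTR the member count was 0 under every alternative run, where 91 of all genes passed with DESeq2 and 41 without shCTR replicate 6. For Pcdh20 in shCBX8 against shCTR the log2 fold change of 0.86 turned to -1.99 without shCBX8 replicate 2 and reached 1.40 without shCBX8 replicate 1. The log2 ratio of the summed Pcdhb level of shCBX8 to shCTR, -1.06, was -0.46 without shCTR replicates 1 and 2 and -0.66 without shCTR replicate 2. Causes were not tested. With library size only as the scaling, the median of all genes moved to 0.17 on the log2 scale in shCBX8 against shCTR. In that setting 12 members were called, beside 5604 of all 16669 genes. Counts below 20 in at least 1 library limit Pcdhb4, Pcdhb6, Pcdhb8, Pcdhb10, Pcdhb11, Pcdhb12, Pcdhb13 and Pcdhb15. They also limit Pcdh8, Pcdh10, Pcdh12 and the shCBX7 and shCTR levels of Pcdhb1.

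With the replicate number as a block, 17 members passed in shCBX8 against shCTR (12 of the 13 among them), 0 in shCBX7 against shCTR and 9 in shCBX8 against shCBX7. Of all 16669 genes, 6036, 0 and 4661 passed in these comparisons. Deviations of same-numbered libraries correlated between -0.08 and 0.69 (median 0.23, 6 of 8 pairs over 0.1), and those of different numbers between -0.51 and 0.47 (median -0.06, 7 of 25 over 0.1). Since not every same-numbered pair was over 0.1, the numbers were not taken to pair the libraries, though same-numbered ones were more alike on balance.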
